A study of Mus musculus with 5 samples.

Results

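The chemokine genes *Cxcl2*, *Cxcl3*, *Cxcl9*, *Cxcl10*, *Ccl1*, *Ccl3*, *Ccl4*, *Ccl5* and *Xcl1* were followed in libraries of sorted group 2 innate lymphoid cells (ILC2s). They were chosen by symbol, and *Xcl1* lay mostly in cells with markers of other types. So did *Ccl3* and *Ccl4* in fresh cells, and *Ccl5* in some fresh libraries. All 9 were found among the 27726 genes that the 5 single-cell libraries share. Levels were read from barcodes that had 200 genes or more and less than 5% of counts from mitochondrial genes. ILC2s were sorted from the lungs of female C57BL/6 wild-type mice as lineage-negative cells with ST2, CD127, Thy1.2 and CD45 on their surface, and each library pooled cells of several mice. The naïve-ILC2s came from mice without a tumour, in 1 library. The tumour-associated (ta) ILC2s came from mice with a subcutaneous TC1 tumour, a mouse lung cancer line, at week 2 and week 3, so the tumour was at a distance from the lung that was sampled. The ta-non-activated cells were freshly isolated (1 library at week 2 and 1 at week 3), and the ta-activated cells (likewise 1 and 1) were kept in culture for a week with IL-2, IL-33 and TSLP. No library held naïve cells that had been cultured, so tumour and culture cannot be told apart where naïve and ta-activated cells are set side by side. No source used here says whether both states of a week came from the same mice.

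Chemokines are small secreted proteins that steer leukocytes along concentration gradients through G protein-coupled receptors. The CXC members *Cxcl2* and *Cxcl3* carry the ELR motif and draw neutrophils through Cxcr2, whereas *Cxcl9* and *Cxcl10* are induced by interferons and draw T cells and NK cells through Cxcr3. Among the CC members, *Ccl1* acts on Ccr8, and *Ccl3*, *Ccl4* and *Ccl5* are inflammatory chemokines that draw T cells, NK cells and monocytes. *Xcl1* draws dendritic cells that cross-present antigen through Xcr1 and is a known product of NK cells and activated T cells. Many of these genes are transcribed within minutes to hours of stimulation and their mRNAs decay quickly.

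Most of the chemokine RNA belonged to different genes in different libraries. The 9 genes together had 1480 UMIs per 1000000 UMIs (CPM) in the naïve library, 261 and 645 CPM in the ta-non-activated libraries of weeks 2 and 3, and 198 and 672 CPM in the ta-activated libraries of weeks 2 and 3. A UMI is a tag that counts each captured RNA molecule once. In the naïve library *Cxcl2* made up 50.7% of that sum and *Ccl1* 34.1%. Without cells with T cell markers the sum was 2408 CPM in ta-non-activated cells of week 3 and 1530 CPM in the naïve library, so the order of these libraries turned. In ta-non-activated cells of week 3 the same pair led, with 55.8% and 24.2%. At week 3 in ta-activated cells *Cxcl10* made up 63.6% and *Cxcl2* 0.246%. The week 2 libraries had no single leading gene: *Cxcl3* led the ta-non-activated library with 31.0% and *Cxcl10* the ta-activated library with 29.3%.

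The libraries differed in depth and in the cells they held. The kept cells numbered 1601 to 6389 per library with 9394957 to 61830293 UMIs, and the median per cell lay between 4396 (week 3 ta-non-activated) and 16090 UMIs (week 2 ta-non-activated). Pairs of libraries shared 1 to 8 cell barcodes, at most 0.375% of the smaller library. The ILC2 markers *Gata3*, *Il1rl1*, *Il7r* and *Rora* were present in every library, with *Gata3* between 189 and 899 CPM. The week 3 ta-non-activated library stood apart: 878 of its 1601 cells (54.8%), with 77.3% of its UMIs, held UMIs of at least 3 of 10 T cell markers, against 0.384% to 6.98% of cells elsewhere. The 10 markers summed to 3147 CPM there, led by *Dntt* at 982 CPM, and to 9.09 to 270 CPM in the other 4. Results on the chemokine genes that rest on this library are given with and without those cells where that moved them. Fewer cells of a type and less RNA per cell cannot be told apart in a library's level. Intervals cover counting error only, since a library has no replicate of its week and state.

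**Figure D1:**
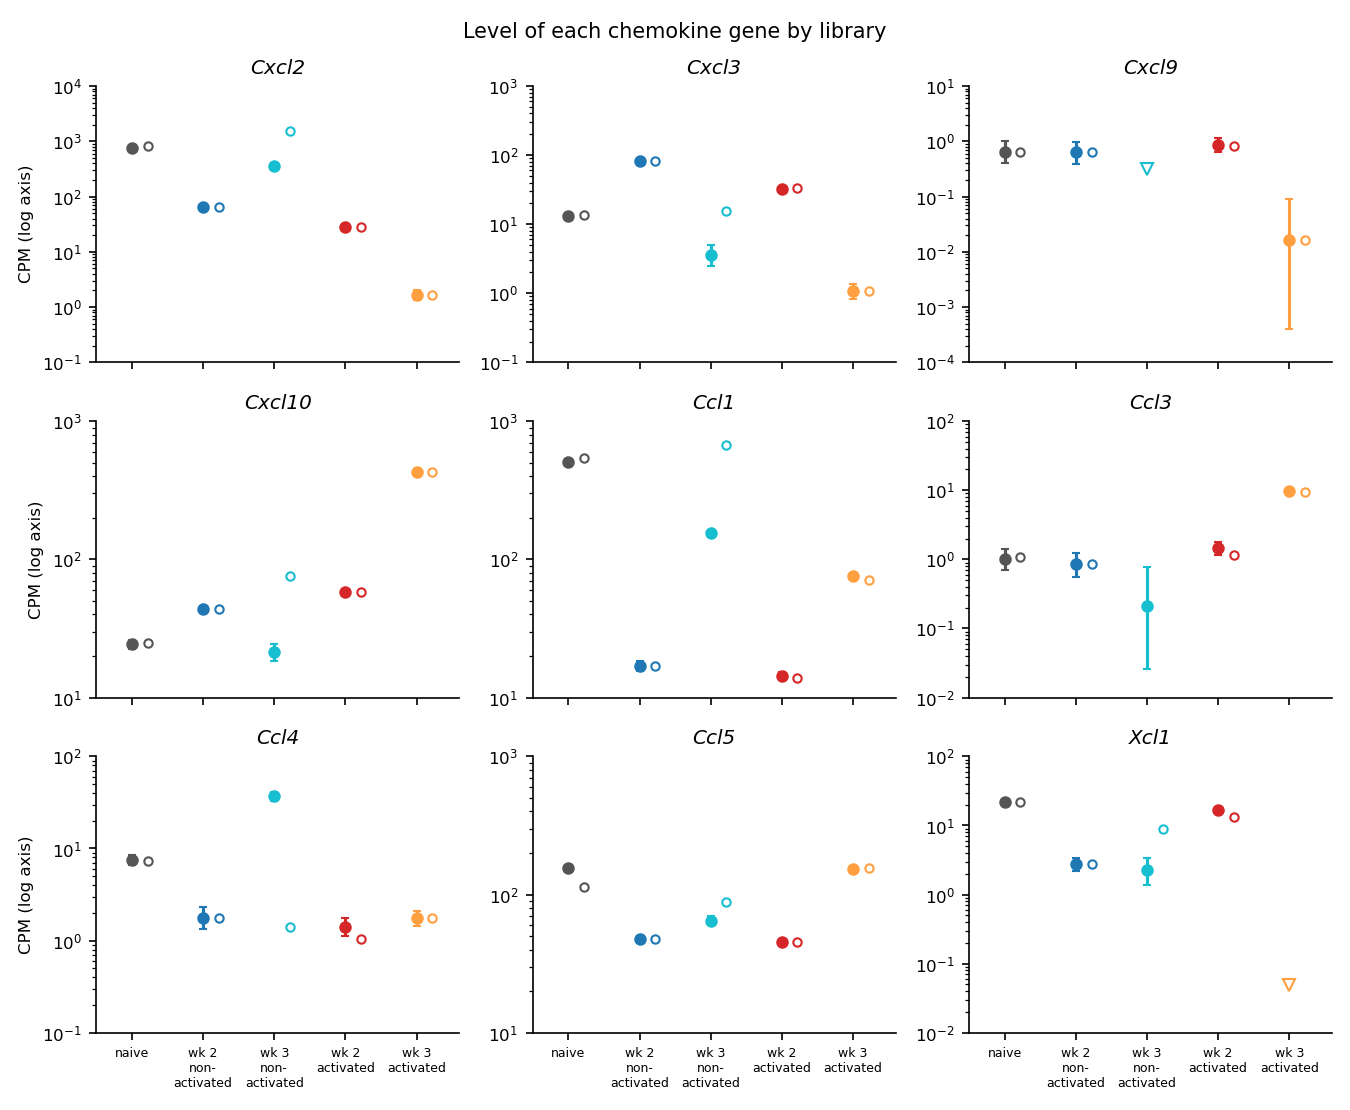
Level of each of the 9 chemokine genes in the 5 libraries, in CPM on a log axis; filled points are all kept cells with exact Poisson 95% intervals, open circles the same library without cells that hold 3 or more T cell markers, and open triangles mark 3 counts where a library had none. Over all cells *Cxcl2* and *Ccl1* were highest in naïve cells (751 and 505 CPM) and *Cxcl10* in week 3 ta-activated cells (427 CPM), and only the week 3 ta-non-activated library shifted strongly without its T cell marker cells.

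The upstream sequences of 4 of these genes are shown because the genes lead the libraries and share a run of letters. RefSeq promoter windows on GRCm38.p6 were matched for 7 of the 9 genes, and the 250 bases before each annotated start were searched on both strands for GGGA and TTCC with any 2 bases between them, a form of the kB site bound by NF-kB, for TGA and TCA with any 1 base between them, a form of the AP-1 site, and for GAAA and GAAA with any 2 bases between them, a form of the interferon-stimulated response element. The letters were chosen after the windows had been read, so their counts in these genes are a description and not a test. The kB letters were found in 4 of the 7 genes (*Cxcl2*, *Cxcl3*, *Cxcl10* and *Ccl1*) and in 1.36% of the 27025 genes with a window, and the interferon letters in *Cxcl10* alone of the 7 and in 3.46% of all genes. The AP-1 letters were found in *Cxcl10* alone of the 7, beginning 74 bases before the start, and in 7.82% of all genes. In *Cxcl2*, *Cxcl3* and *Ccl1* the match reads on both strands over the same 11 bases, so it counts as 1 stretch. Capitals mark the kB and interferon matches in the following windows, each printed 5′ to 3′ on the strand of its gene.
*Cxcl2*, chr5:90903649-90903898, plus strand: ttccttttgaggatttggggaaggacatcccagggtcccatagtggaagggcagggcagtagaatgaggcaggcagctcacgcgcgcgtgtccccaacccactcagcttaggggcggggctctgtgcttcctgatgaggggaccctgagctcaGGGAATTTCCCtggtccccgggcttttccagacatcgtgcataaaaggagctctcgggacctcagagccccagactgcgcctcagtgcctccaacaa
*Cxcl3*, chr5:90785851-90786100, plus strand: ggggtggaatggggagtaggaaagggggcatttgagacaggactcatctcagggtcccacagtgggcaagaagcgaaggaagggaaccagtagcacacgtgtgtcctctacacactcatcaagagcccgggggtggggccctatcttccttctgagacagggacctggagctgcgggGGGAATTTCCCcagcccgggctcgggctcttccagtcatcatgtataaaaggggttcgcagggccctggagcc
*Ccl1*, chr11:82179813-82180062, minus strand: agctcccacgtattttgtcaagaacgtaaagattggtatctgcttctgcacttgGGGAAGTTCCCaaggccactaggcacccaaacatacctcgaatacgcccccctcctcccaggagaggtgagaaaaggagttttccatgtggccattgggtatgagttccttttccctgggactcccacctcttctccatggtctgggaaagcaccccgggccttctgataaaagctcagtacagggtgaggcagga
*Cxcl10*, chr5:92348890-92349139, minus strand: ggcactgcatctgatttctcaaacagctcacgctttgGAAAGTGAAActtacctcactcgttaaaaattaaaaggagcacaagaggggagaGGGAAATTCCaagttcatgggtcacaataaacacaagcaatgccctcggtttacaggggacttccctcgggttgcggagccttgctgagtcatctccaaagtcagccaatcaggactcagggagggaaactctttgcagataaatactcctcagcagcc
The kB match begins 97 bases before the start in *Cxcl2*, 73 in *Cxcl3*, 196 in *Ccl1* and 159 in *Cxcl10*, and the interferon match of *Cxcl10* begins 213 bases before it. A match is a run of letters and not a measured binding site.

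*Cxcl2* and *Cxcl3* are genes of the same neutrophil-attracting cluster, at chr5:90903871-90905938 and chr5:90786103-90789600 (GENCODE M21, GRCm38), with 114271 bases between them. *Cxcl2* was at 751 CPM in the naïve library (95% interval 741 to 760), 65.4 and 360 CPM in the ta-non-activated libraries of weeks 2 and 3, and 28.0 and 1.65 CPM in the ta-activated libraries of weeks 2 and 3. All 5 intervals were separate, the level over all cells was highest in the naïve and lowest in ta-activated cells of week 3, and the 2 extremes lay 455-fold apart. Without T cell marker cells the week 3 ta-non-activated library was the highest, at 1542 CPM against 805 CPM in the naïve. *Cxcl3* followed another order, with 80.8 CPM in ta-non-activated cells of week 2 and 32.6 CPM in ta-activated cells of week 2. It was at 13.2 CPM in the naïve, 3.62 CPM in the week 3 ta-non-activated (15.5 CPM without T cell marker cells) and 1.07 CPM in ta-activated cells of week 3. Thus the week 2 libraries held more *Cxcl3* than *Cxcl2* UMIs (2685 against 2174 fresh, 1868 against 1605 after culture), and the naïve library held 24325 *Cxcl2* against 428 *Cxcl3* UMIs. After culture this order rested on 1 cell. Without the most loaded cell of each gene the week 2 ta-activated library was at 18.7 CPM for *Cxcl3* and 23.7 CPM for *Cxcl2*. These are UMI counts of 3′ ends, not levels per length.

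A few cells carried much of this signal in some libraries. In week 2 ta-non-activated cells 1 cell held 626 of the 2174 *Cxcl2* UMIs, and the library was at 46.6 CPM without it. In week 2 ta-activated cells 1 cell held 795 of the 1868 *Cxcl3* UMIs (42.6%), which left 18.7 CPM. In naïve cells the most loaded cell held 209 *Cxcl2* UMIs, 0.859% of the total, and 2151 of 6389 cells (33.7%) had at least 1. With each cell thinned to 2000 UMIs, so that depth is equal, 25.9% of naïve cells had a *Cxcl2* UMI (Clopper-Pearson 95% interval 24.8% to 27.0%). The thinned share was 2.88% and 13.5% in ta-non-activated cells of weeks 2 and 3, and 0.992% and 0.269% in ta-activated cells of weeks 2 and 3. The top 5% of naïve cells held 61.8% of the thinned *Cxcl2* UMIs, so most of the RNA lay in a minority of the cells that carried it.

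**Figure D2:**
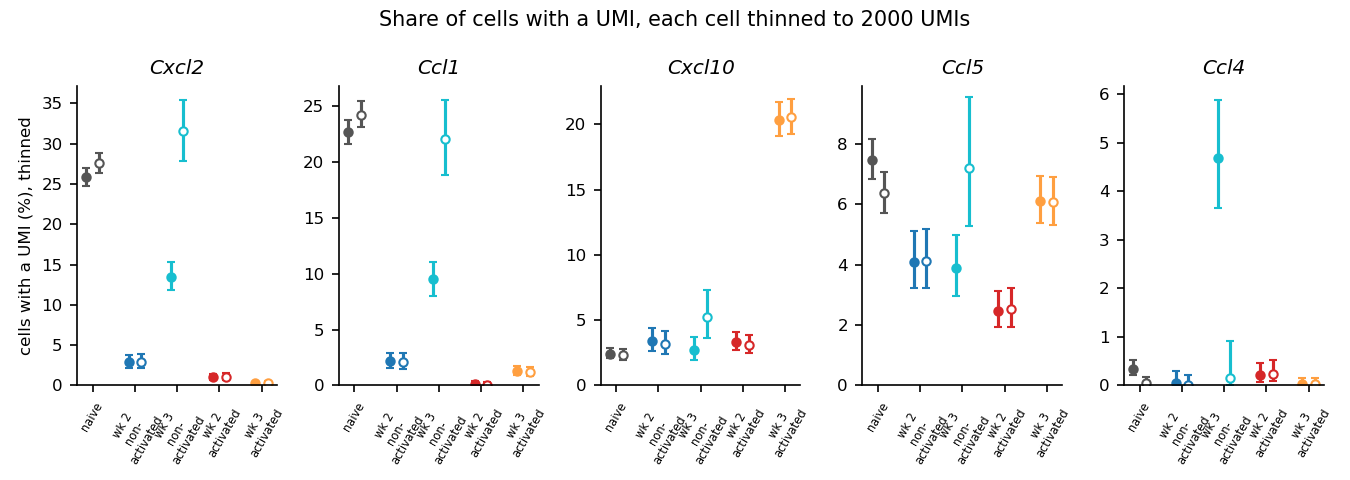
Share of cells with at least 1 UMI of 5 chemokine genes after each cell was thinned to 2000 UMIs (cells below that depth were left out), with Clopper-Pearson 95% intervals; filled points are all cells and open points cells without markers of other cell types. In week 3 ta-non-activated cells the *Cxcl2* share was 13.5% over all cells and 31.5% in cells without other markers, whereas the *Ccl4* share was 4.68% over all cells and 0.163% in cells without other markers.

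*Ccl1*, the Ccr8 ligand, was the other leading gene of naïve cells. It was at 505 CPM there (498 to 513), 17 and 156 CPM in the ta-non-activated libraries of weeks 2 and 3, and 14.3 and 76.3 CPM in the ta-activated libraries of weeks 2 and 3. Among ta-activated cells of week 2, 1 cell held 743 of the 820 UMIs (90.6%), and the level without that cell was 1.34 CPM. That cell had 66761 UMIs in all and markers of NK cells or ILC1s. Among ta-activated cells of week 3, 171 of 3822 cells had a *Ccl1* UMI, and the 10 most loaded cells held 70.3% of them. The thinned share of *Ccl1*-positive cells was 22.7% (21.7% to 23.8%) in the naïve library. It was 2.16% and 9.50% in the ta-non-activated libraries of weeks 2 and 3, and 0.142% and 1.29% in the ta-activated libraries. The gene model of *Ccl1*, chr11:82176657-82305690, spans 129034 bases of which 126665 lie outside exons, because 1 annotated transcript starts far upstream. The naïve matrix was made with Cell Ranger 6.0.0 and the other 4 with 3.0.2, and what this meant for the counts of a gene with such a model was not tested.

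The cells with T cell markers held little *Cxcl2* or *Ccl1*. In ta-non-activated cells of week 3 0.573% of the 872 thinned T cell marker cells had a *Cxcl2* UMI and the same share had a *Ccl1* UMI (median depth 6282 UMIs). In the 612 thinned cells without markers of any other type the shares were 31.5% and 22.1% (median depth 2948.5 UMIs), beside 27.6% and 24.3% of such cells in the naïve library (4516 UMIs). With T cell marker cells left out of both libraries, *Cxcl2* and *Ccl1* were at 1542 and 676 CPM in ta-non-activated cells of week 3, 1.92-fold and 1.24-fold above the naïve library, whereas over all cells they were 2.08-fold and 3.23-fold below it. Folds between libraries were taken from CPM with 1 CPM added.

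Shares in cells with markers of other types served as a background. In the naïve library the *Cxcl2* and *Ccl1* shares were 10% and 4% in the 150 thinned cells with NK or ILC1 markers (median depth 5365.5 UMIs), and 7.71% and 5.67% in the 441 with T cell markers (5330 UMIs), below the 27.6% and 24.3% of cells without markers of other types. The 103 thinned naïve cells with 2 or more endothelial markers had 28.2% and 23.3%, no less than the rest. Those cells also held ILC2 markers, with *Il1rl1* at 652 CPM and *Gata3* at 579 CPM against 875 and 846 CPM in cells without other markers, so they gave no background free of ILC2 RNA. Free RNA was not measured in any other way.

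*Cxcl10* and *Cxcl9* lie 18559 bases apart on the minus strand, at chr5:92346638-92348889 and chr5:92321347-92328079, and behaved differently in these libraries. *Cxcl10* was at 427 CPM in ta-activated cells of week 3 (422 to 432), 58.2 CPM in ta-activated cells of week 2, 43.6 and 21.2 CPM in the ta-non-activated libraries of weeks 2 and 3, and 24.3 CPM in the naïve library. The week 3 ta-activated level was 7.34-fold above the next and 20.2-fold above the lowest, and the naïve and week 3 ta-non-activated intervals overlapped. Without T cell marker cells *Cxcl10* was at 75.6 CPM (64.4 to 88.3) in ta-non-activated cells of week 3 and 24.8 CPM (23.1 to 26.7) in the naïve library, so week 3 fresh cells moved from the lowest to the second place. In the week 3 ta-activated library 1348 of 3822 cells (35.3%) had a *Cxcl10* UMI and the most loaded cell held 1.97% of the total. The thinned share was 20.4% (19.1% to 21.7%) there, against 2.44% to 3.43% in the other 4 libraries. It was 9.68% in the 62 cells with 2 or more endothelial markers (median depth 27094.5 UMIs) and 20.6% in cells without markers of other types (12368 UMIs). Of the endothelial markers, *Cdh5*, *Cldn5*, *Tie1* and *Emcn* had no UMI in that library. The 62 cells held *Gata3* at 634 and *Il1rl1* at 39.6 CPM, against 913 and 124 CPM in cells without other markers. They therefore gave no background free of ILC2 RNA. In ta-activated cells of week 2 the 60 cells with NK or ILC1 markers had a *Cxcl10* share of 18.3%, against 3.13% of cells without markers of other types. *Cxcl9* was at or below 0.854 CPM in every library (49 UMIs at most), with no UMI in the week 3 ta-non-activated and 1 UMI in ta-activated cells of week 3. No UMI in the former allows a level of up to 0.319 CPM by the limit of 3 counts. So *Cxcl9* was near the detection limit in the library where *Cxcl10* was highest.

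The other interferon-induced genes were also highest after culture. All 12 genes of an interferon-induced list (*Isg15*, *Ifit1* and *Irf7* among them) were at least 2-fold higher in the week 2 ta-activated than in ta-non-activated cells of week 2, and 11 of 12 in week 3. Their sum was 2463 and 4344 CPM in the ta-activated libraries of weeks 2 and 3 against 127 to 364 CPM in the other 3. In edgeR's test of 2 ta-activated against 2 ta-non-activated libraries none of the 12 was called, 8 had an unadjusted p under 0.05, and their median log2 difference was 4.17 beside -0.02 over all genes tested. The list was high in both ta-activated libraries, whereas *Cxcl10* was high in the week 3 library. Within ta-activated cells of week 3 *Cxcl10*-positive cells held 17.4 thinned UMIs of the 12 genes on average and *Cxcl10*-negative cells 8.45. Of the 94 cells without a UMI of the list 3.19% had a *Cxcl10* UMI, and of the 436 cells with more than 20 such UMIs 59.6%. In ta-activated cells of week 2 the 144 cells with more than 20 such UMIs had a *Cxcl10* share of 16%. The genes most like *Cxcl10* over the 3714 thinned cells of the week 3 library, by Pearson's r of log counts, were *Rsad2* (0.39), *Ifit1* (0.36), *Ifit3* (0.34), *Isg15* (0.32) and *Iigp1* (0.27). These r values describe cells of 1 library that share its handling, and they come without a test.

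**Figure D3:**
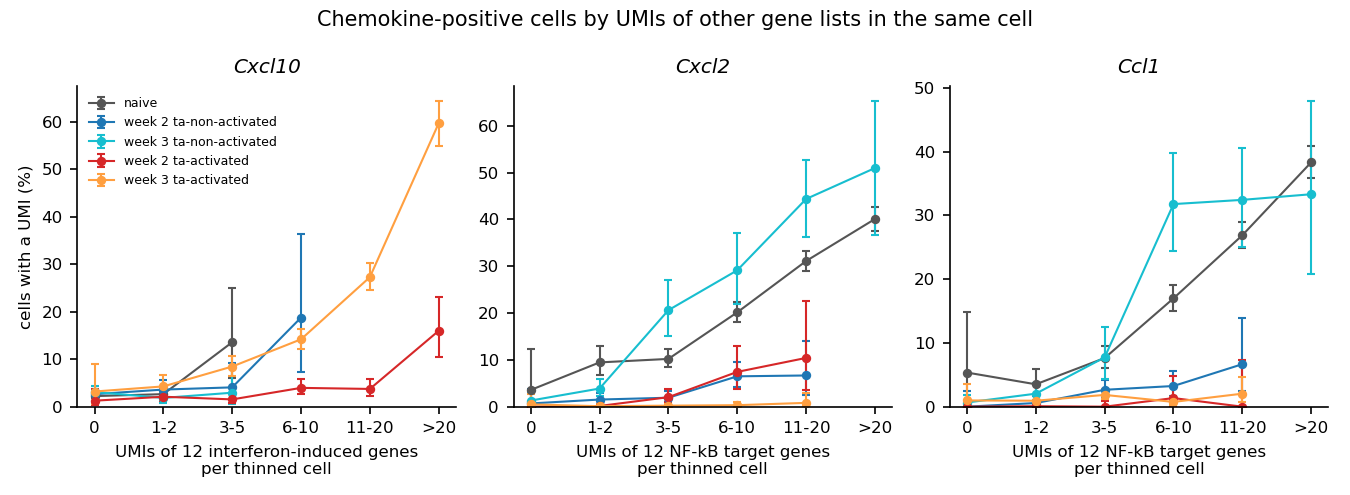
Share of thinned cells with a UMI of *Cxcl10*, *Cxcl2* or *Ccl1* (vertical axis, percent with Clopper-Pearson 95% intervals) by the number of UMIs of 12 interferon-induced or 12 NF-kB genes in the same cell, 1 line per library; bins under 20 cells are left out. The week 3 ta-activated *Cxcl10* line ends at 59.6%, and the naïve and week 3 ta-non-activated lines of *Cxcl2* end at 40.1% and 51.0%.

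In the naïve and week 3 ta-non-activated libraries *Cxcl2* and *Ccl1* were found more often in cells rich in NF-kB genes and early response genes. The NF-kB list holds 12 genes of feedback inhibitors and subunits such as *Nfkbia* and *Tnfaip3*, and the early response list 12 genes such as *Fos* and *Nr4a1* that are transcribed at once after a stimulus. In the naïve library the *Cxcl2* share was 9.46% in the 370 cells with 1 or 2 thinned NF-kB UMIs and 40.1% in the 1479 cells with more than 20. The matching *Ccl1* shares were 3.51% and 38.3%. In week 3 ta-non-activated cells the *Cxcl2* share was 3.88% with 1 or 2 such UMIs and 51.0% in the 51 cells with more than 20. That library also holds the T cell marker cells, of which 0.573% had a *Cxcl2* UMI. In week 3 ta-activated cells the *Cxcl2* share stayed at or below 0.816% in every NF-kB bin and 0.758% in every early response bin. In the naïve library the *Cxcl2* share was 6.75% in cells with 1 or 2 early response UMIs and 36.1% with more than 20. The matching *Ccl1* shares were 5.79% and 30.7%. In week 3 ta-non-activated cells the *Cxcl2* shares by early response UMIs were 1.96% and 29.1%. The 12 early response genes summed to 8845 CPM in the naïve and 5510 CPM in ta-non-activated cells of week 3, against 627 to 841 CPM in the other 3. Without T cell marker cells the sum was 10299.7 CPM in ta-non-activated cells of week 3 and 8964 CPM in the naïve library. So the libraries with the highest levels of *Cxcl2* and *Ccl1* were also the highest in early response genes, and whether one bears on the other was not tested. In edgeR's test of activation none of the 12 NF-kB or 12 early response genes was called. The early response genes had a median log2 difference of -3.50 (4 at an unadjusted p under 0.05), and the NF-kB genes one of -0.20 (0 at that p).

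The genes most like *Cxcl2* over 6147 thinned naïve cells were *Areg* (r = 0.29), *Ccl1* (0.27), *Gadd45b* (0.26), *Nfkbia* (0.26) and *Nr4a1* (0.25). For *Ccl1* they were *Gadd45b* (0.31), *Areg* (0.30), *Nr4a1* (0.28), *Nr4a3* (0.28) and *Cxcl2* (0.27). *Areg* encodes amphiregulin, a tissue repair factor made by ILC2s. A list of 12 cytokine genes that includes *Areg*, *Il5* and *Il13* averaged 5.69 thinned UMIs in *Cxcl2*-positive naïve cells and 2.67 in *Cxcl2*-negative cells, and 6.47 and 2.56 by *Ccl1*. *Areg* alone was at 945 of the 1820 CPM of that list in the naïve library. The list values therefore partly repeat the r values of *Areg* in the same cells, and the list was not read without it. In ta-activated cells of week 3 the 48 *Ccl1*-positive cells averaged 24.3 UMIs of that list and the rest 10.7.

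In the 3 fresh libraries cells with markers of other types held 97.2% to 100% of the *Ccl4* UMIs, but they held 46.9% and 0% in the ta-activated libraries of weeks 2 and 3. In the last library only 8 cells held the 108 *Ccl4* UMIs. Of these, 48 lay in 1 cell of 92823 UMIs, where the library's median was 12296.5 UMIs. *Ccl3*, *Ccl4* and *Ccl5* lie within one cluster, at chr11:83647844-83649355, chr11:83662584-83664683 and chr11:83525778-83530518, and *Xcl1* lies at chr1:164931644-164935527. *Ccl4* was at 36.9 CPM in ta-non-activated cells of week 3, 7.59 CPM in the naïve library and 1.41 to 1.78 CPM in the other 3, whose intervals overlapped. Cells with T cell markers held 99.1% of the *Ccl4* UMIs of the week 3 ta-non-activated library, where 7.91% of them were positive after thinning. Without them the *Ccl4* level of that library was 1.41 CPM, near the limit of 3 counts. In the naïve library the 155 cells with NK or ILC1 markers, 2.43% of the cells, held 88.2% of the *Ccl4* UMIs. In ta-non-activated cells of week 2, 1 cell held 56 of the 59 *Ccl4* UMIs. *Ccl3* was at 9.69 CPM in ta-activated cells of week 3 and between 0.213 and 1.46 CPM in the other 4, of which 2 UMIs made up the lowest. In ta-activated cells of week 3, 68 of 3822 cells had a *Ccl3* UMI and the 10 most loaded held 64.3%. Cells with markers of any other type held 17.7% of the UMIs there, none of which lay in NK or ILC1 marker cells. Such cells held 81.8% of the *Ccl3* UMIs in the naïve library and 53.6% in ta-activated cells of week 2. They held 75% and 100% in the ta-non-activated libraries of weeks 2 and 3, which had 28 and 2 UMIs.

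*Xcl1* was held mostly by cells with NK or ILC1 markers wherever it was found. It was at 21.9 CPM in the naïve and 16.6 CPM in ta-activated cells of week 2, 2.74 and 2.24 CPM in the ta-non-activated libraries of weeks 2 and 3, and no UMI was found among the 61830293 of the week 3 ta-activated library, at least 452-fold below the naïve level by the limit of 3 counts. Cells with NK or ILC1 markers held 81.3% of its UMIs in the naïve library, 94.5% in the week 2 ta-non-activated (8 cells), 85.7% in the week 3 ta-non-activated (7 cells) and 89.9% in ta-activated cells of week 2 (60 cells). Of the 7 in ta-non-activated cells of week 3, 1 held 17 of the 21 *Xcl1* UMIs. The week 3 ta-activated library held 2 such cells. Cells with these markers also held ILC2 RNA. In ta-activated cells of week 2 they had *Il1rl1* at 65.8 and *Gata3* at 245 CPM, against 51.3 and 611 CPM in cells without other markers. In naïve cells they had 75.8 and 227 CPM, against 875 and 846 CPM. Their median depth in the week 2 ta-activated library was 29296 UMIs, against 13432 UMIs in the rest. Whether they were NK cells, ILC1s, or deep or mixed ILC2s was not tested. The 8 NK or ILC1 markers summed to 93.3 CPM in the naïve library, 22 CPM in ta-activated cells of week 2 and 1.96 to 7.24 CPM in the other 3, so *Xcl1* and these markers had the same 2 highest libraries.

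*Ccl5* lay both in cells with markers of other types and in cells without them. It was at 155 CPM in the naïve and 154 CPM in ta-activated cells of week 3 with overlapping intervals, 48.0 and 64.8 CPM (88.3 CPM without T cell marker cells) in the ta-non-activated libraries of weeks 2 and 3, and 45.2 CPM in ta-activated cells of week 2. NK or ILC1 marker cells held 46.9% of the naïve *Ccl5* UMIs, and 47.3% of them were positive after thinning against 6.36% of naïve cells without other markers. Of the *Ccl5* UMIs in ta-non-activated cells of week 3, 7 such cells held 44.5% and cells with T cell markers, some of them the same cells, 69.1%. In the week 2 libraries cells with markers of any other type held 8.84% of the *Ccl5* UMIs in ta-non-activated and 11.8% in ta-activated cells. In ta-activated cells of week 3 they held 5.31%, and 6.06% of the cells without such markers were positive. So similar levels of *Ccl5* over all cells of the naïve and week 3 ta-activated libraries lay in different cells. Outside cells with other markers the levels were 67.5 and 156 CPM. In ta-activated cells of week 3, 1 cell of 92823 UMIs, without such markers, held 1371 of the 9533 *Ccl5* UMIs. Without the most loaded cell of each library the levels over all cells were 148 CPM in the naïve and 132 CPM in ta-activated cells of week 3. The genes most like *Ccl5* in naïve cells were *Klrd1* (0.45), *Nkg7* (0.41), *Ms4a4b* (0.37), *Gramd3* (0.36) and *Il12rb2* (0.34), of which *Klrd1* and *Nkg7* are NK cell genes.

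**Figure D4:**
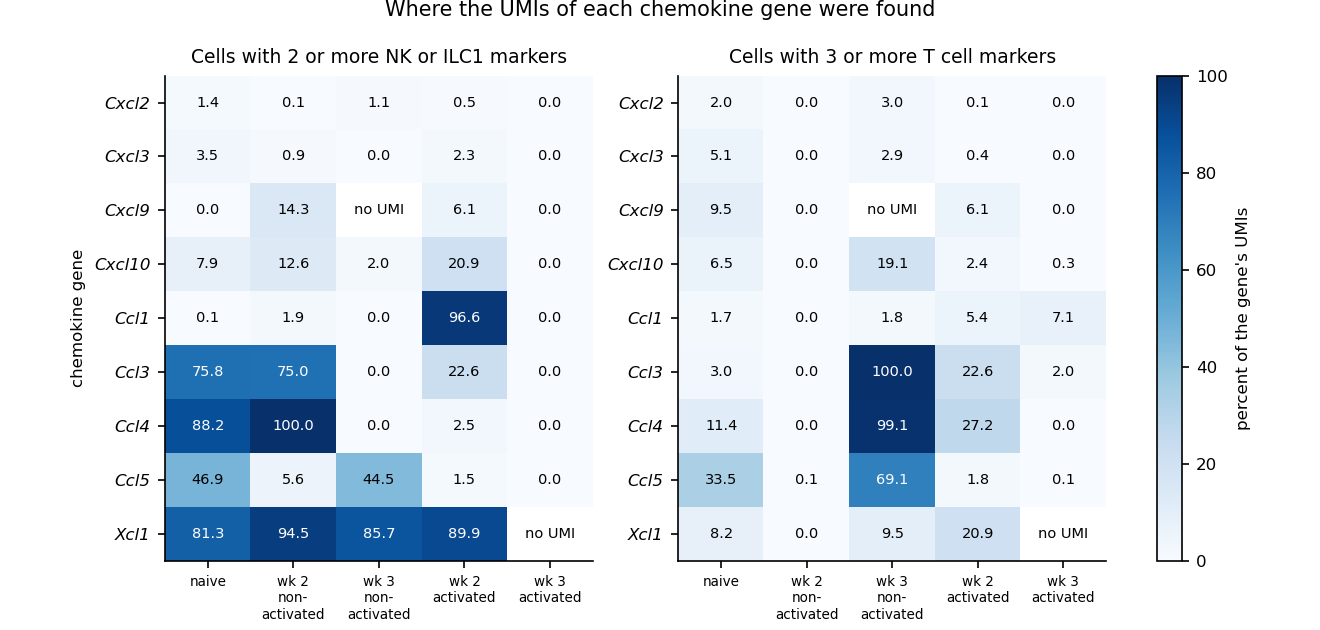
Percent of the UMIs of each chemokine gene (rows) in each library (columns) that lay in cells with 2 or more of 8 NK or ILC1 markers (left) or 3 or more of 10 T cell markers (right); a cell can be in both panels, and 0.0 marks no UMI in such cells or a share below 0.05%. *Xcl1* stood at 81.3% to 94.5% on the left in the 4 libraries that held it, and *Ccl4* at 99.1% on the right in ta-non-activated cells of week 3.

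The members differed in which others shared their cells. After thinning, 45.6% of naïve cells had a UMI of at least 1 of the 9 genes and 14.0% of at least 2. The share with any was 15.6% and 27.6% in ta-non-activated cells of weeks 2 and 3, and 8.26% and 26.4% in ta-activated cells. Of the 36 pairs of genes 13 could be read in the naïve library, where the product of the shares gave at least 5 cells. *Cxcl2* and *Ccl1* were together in 590 naïve cells where the product of their shares gave 361 (ratio 1.63). *Cxcl2* and *Cxcl3* were together in 51 cells against 20.7 (2.46), and 63.8% of *Cxcl3*-positive cells also had *Cxcl2*. *Ccl5* and *Xcl1* were together in 38 cells against 5.90 (6.44). *Ccl1* and *Xcl1* shared 1 cell against 17.9, and *Cxcl2* and *Ccl4* none against 5.44. *Ccl5* was found with *Cxcl2* in 107 cells against 119 and with *Ccl1* in 109 against 104, near the products of the shares. These naïve values are over all cells, and cells with markers of other types held 63.5% of the *Ccl5* and 87.3% of the *Xcl1* UMIs. Without such cells 8 pairs could be read in the naïve library, with ratios of 0.958 to 2.42. In week 3 ta-non-activated cells *Cxcl2* and *Ccl1* were together in 72 cells against 19.2 (3.75), and the ratio was 1.67 without cells with markers of other types. In week 3 ta-activated cells *Cxcl10* and *Ccl5* were together in 64 cells against 46.2 (1.39). No pair could be read in the week 2 libraries at this depth.

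Naïve and fresh ta-ILC2s could be compared only between single libraries, without a test. In ta-non-activated cells of week 2, 5 of the 9 chemokine genes were at least 2-fold lower than in the naïve library, as were 32.4% of the 12786 genes with at least 1 CPM in some library, and 1 was at least 2-fold higher, as were 16.3% of all genes. The 5 were *Ccl1* (28.1-fold lower), *Cxcl2* (11.3-fold), *Xcl1* (6.13-fold), *Ccl5* (3.18-fold) and *Ccl4* (3.1-fold), and *Cxcl3* was 5.76-fold higher. Here and in later counts *Cxcl9*, below 1 CPM in every library, counts among the 9 but not among all genes, which hold the other 8. In the week 3 library again 5 were lower (26.6% of all genes) and 1 higher (17.3%): *Xcl1*, *Ccl1*, *Cxcl3*, *Ccl5* and *Cxcl2* were 2.08-fold to 7.08-fold lower and *Ccl4* 4.41-fold higher. Both comparisons share the naïve library. With T cell marker cells left out of both libraries, the week 3 log2 ratios of *Cxcl2*, *Ccl1* and *Cxcl3* were 0.94, 0.32 and 0.17, those of *Cxcl10* and *Ccl4* were 1.57 and -1.79, and 3 genes were at least 2-fold lower (23.6% of all genes). So 5 of the 9 log2 ratios changed sign with those cells, and *Xcl1* (-1.21), *Ccl5* (-0.35), *Ccl3* (-1.06) and *Cxcl9* (-0.71) did not, of which *Ccl3* and *Cxcl9* had no UMI left at week 3.

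The 2 weeks of one state differed for most members. Between the ta-non-activated libraries 3 genes were at least 2-fold higher in week 3 (19.1% of all genes) and 2 at least 2-fold lower (9.53%). *Cxcl2*, *Ccl1* and *Ccl4* were 5.44-fold, 8.72-fold and 13.7-fold higher in week 3, and *Cxcl3* was 17.7-fold and *Cxcl10* 2.01-fold lower. Without the T cell marker cells *Cxcl2* and *Ccl1* were 23.2-fold and 37.5-fold higher in week 3, *Xcl1* was 2.65-fold higher and *Cxcl3* 4.97-fold lower, and the log2 ratios of *Ccl4* and *Cxcl10* were of opposite sign (-0.21 and 0.78). This *Xcl1* value rested on 1 cell of week 3, which held 17 of the 21 *Xcl1* UMIs found over all cells. Between the ta-activated libraries 4 of the 9 genes were at least 2-fold higher in week 3 against 2.67% of all genes, and 3 at least 2-fold lower against 2.99%. *Cxcl10* was 7.24-fold, *Ccl1* 5.06-fold, *Ccl3* 4.34-fold and *Ccl5* 3.36-fold higher in week 3, whereas *Cxcl3* was 16.2-fold and *Cxcl2* 10.9-fold lower. *Xcl1*, without a UMI in week 3, was at least 341-fold lower against the limit of 3 counts. So 7 of the 9 genes differed at least 2-fold between libraries that were alike in most genes. Some of these folds rested on few cells. In the week 2 ta-activated library 1 cell held 743 of the 820 *Ccl1* UMIs and 1 cell 42.6% of the *Cxcl3* UMIs. Cells with NK or ILC1 markers, which held most *Xcl1* UMIs, numbered 60 in that library and 2 in the week 3 ta-activated library. Week, mouse pool and library cannot be told apart here.

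Only the comparison of 2 ta-activated with 2 ta-non-activated libraries had more than 1 library on each side. The 2 libraries of a group came from weeks 2 and 3. No library held cells cultured without the cytokines, so activation and culture cannot be told apart. In edgeR's quasi-likelihood test none of the 9 chemokine genes passed an adjusted p of 0.05, and the share of all 12643 genes tested that passed was 0%. At an unadjusted p under 0.05 there were 2120 genes (16.8%), of which *Ccl4* was the only member. DESeq2 called 1047 of 12575 genes (8.33%), among them *Cxcl2* and *Ccl4*, with adjusted p-values of 0.0287 and 0.0294. The edgeR log2 difference was -3.82 ± 1.57 (SE) for *Cxcl2* with an adjusted p of 0.316, and -3.58 ± 1.36 for *Ccl4* with an adjusted p of 0.298. It was 2.72 ± 1.07 for *Cxcl10* and 3.08 ± 1.21 for *Ccl3*, both with an adjusted p of 0.303. The differences of *Cxcl3*, *Cxcl9*, *Ccl1*, *Ccl5* and *Xcl1* lay between -1.53 and 1.64 with adjusted p-values of 0.578 to 0.988. Since *Xcl1* had no UMI in 1 library, its fitted value depends on the prior count. Without the T cell marker cells the *Ccl4* difference was -0.44 ± 0.62 with an adjusted p of 0.809, and without cells with markers of any other type it was 2.24 ± 2.13, of opposite sign, with no member called by edgeR in either case. Without the week 2 ta-non-activated library edgeR called 1646 genes and *Ccl4* had an adjusted p of 0.0269, and without the week 3 ta-non-activated library it called 513 genes and no member.

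Within single weeks the members differed in direction. Of the 9 genes 2, *Cxcl2* and *Cxcl3*, were at least 2-fold lower after activation in both weeks, against 2.62% of all genes, and 0 were at least 2-fold higher in both, against 6.92%. *Ccl1* would join them without the single cell that held 90.6% of its UMIs in ta-activated cells of week 2. Its week 2 log2 ratio was then -2.94 in place of -0.23. With the most loaded cell of each gene left out of both week 2 libraries, the ratios were -0.95 for *Cxcl2*, -1.90 for *Cxcl3* and -2.72 for *Ccl1*. *Cxcl2* was then less than 2-fold lower in week 2. In week 2 the log2 ratio of ta-activated to ta-non-activated CPM was -1.20 for *Cxcl2*, -1.28 for *Cxcl3* and 2.23 for *Xcl1*, and the other 6 lay between -0.23 and 0.42. There 1 member was at least 2-fold higher (15.3% of all genes) and 2 lower (7.04%). In week 3 it was -7.09 for *Cxcl2*, -3.79 for *Ccl4*, -1.69 for *Xcl1*, -1.16 for *Cxcl3* and -1.02 for *Ccl1*, against 4.27 for *Cxcl10*, 3.14 for *Ccl3* and 1.24 for *Ccl5*. The *Ccl3* value rests on 2 UMIs in ta-non-activated cells, which give a ratio of 45.5 with a counting interval of 12.5 to 377, and *Xcl1* was at least 46.1-fold lower against the limit of 3 counts. The *Xcl1* values of week 3 rest on 1 ta-non-activated cell that held 17 of the 21 UMIs, and the level without it was 0.426 CPM. In the week 3 comparison 3 members were at least 2-fold higher (17.3% of all genes) and 5 lower (16.3%). The median log2 ratio of the 9 genes was -0.09 in week 2 and -1.02 in week 3, beside 0.13 and 0 over all genes. Without the T cell marker cells the week 3 ratio of *Ccl4* was 0.19, that of *Cxcl2* -9.18, that of *Ccl1* -3.23, that of *Cxcl3* -2.99 and that of *Cxcl10* 2.48, with 2 members at least 2-fold higher (20.7% of all genes) and 4 lower (10.9%).

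**Figure D5:**
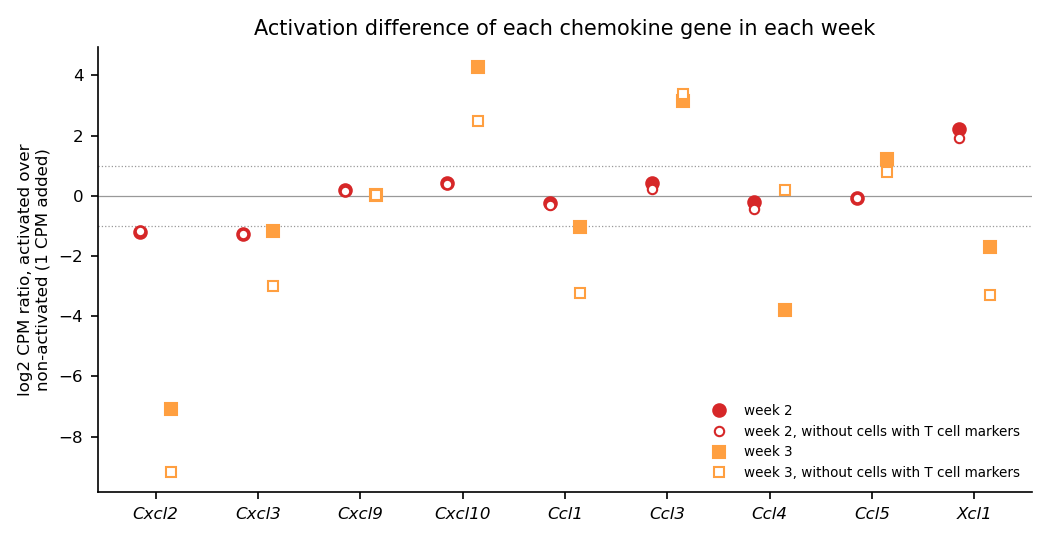
Log2 ratio of ta-activated to ta-non-activated CPM (1 CPM added) for each chemokine gene in week 2 (circles) and week 3 (squares), each 1 library against 1; open symbols leave out cells with 3 or more T cell markers and dotted lines mark a 2-fold difference. *Cxcl2* was lower after activation in both weeks (-1.20 and -7.09), *Xcl1* was at 2.23 in week 2 and -1.69 in week 3, and the week 3 ratio of *Ccl4* went from -3.79 to 0.19 without the T cell marker cells.

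Other chemokine genes were low in these cells. Of a list of 26 other chemokine genes in the shared set, 2 to 6 reached 1 CPM in a library and their sum was 20.6 to 46.1 CPM, against 198 to 1480 CPM for the 9. Without T cell marker cells the sums in ta-non-activated cells of week 3 were 109 CPM for that list and 2408 CPM for the 9. *Cxcl1*, another Cxcr2 ligand, was at 22.5 CPM in the naïve and 12.3 CPM in ta-non-activated cells of week 3 (24.6 and 54.5 CPM without T cell marker cells) and at or below 1.38 CPM in the rest, so the same libraries led as for *Cxcl2*. *Cxcl16*, a membrane-bound chemokine, was at 18.2 CPM in ta-non-activated cells of week 2 and 0.106 to 2.35 CPM elsewhere. *Ccl25* was at 10.3 to 17.9 CPM in all 5, and *Pf4*, a platelet chemokine, at 7.24 CPM in ta-non-activated cells of week 3 (28.2 CPM without T cell marker cells) and at most 2.62 CPM elsewhere. In edgeR's test 7 of the 26 could be tested and none was called, with 3 at an unadjusted p under 0.05.

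Of 9 receptors for these chemokines, 6 reached 1 CPM in some library. *Ccr8*, the receptor of *Ccl1*, was at 258 CPM in the naïve and 37.8 CPM in ta-non-activated cells of week 3 (274 and 165 CPM without T cell marker cells) and 7.64 to 9.10 CPM in the other 3, so receptor and ligand had the same 2 highest libraries. *Ccr1*, a receptor of *Ccl3* and *Ccl5*, was at 82.1 and 17 CPM in the ta-activated libraries of weeks 2 and 3 and at most 3.73 CPM elsewhere, and *Ccr3*, a receptor of *Ccl5*, was at 10.5 CPM in ta-activated cells of week 2 and at most 1.42 CPM elsewhere. In edgeR's test 6 of the 9 receptors were tested, none was called and 3 had an unadjusted p under 0.05.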

How the data were processed

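Gene by cell UMI counts were taken as deposited by the authors, who aligned the reads and counted UMIs with Cell Ranger. Per the file headers, version 6.0.0 made the naïve matrix and 3.0.2 the other 4. The submitters' processing notes name Cell Ranger 3.0.2, Seurat 3 and GRCm38. The counts were not normalised by the authors. Barcodes with 200 genes or more and under 5% mitochondrial counts were kept. Doublets were not removed, and an alternative left out the 5% of cells with most UMIs in each library. CPM are a gene's UMIs per 1000000 UMIs of a library's kept cells, and their 95% intervals are exact Poisson ones. Shares of cells, with Clopper-Pearson bounds, were taken after thinning each cell to 2000 UMIs without replacement, which left out 14 to 242 shallower cells per library. Cells with UMIs of at least 2 of 8 markers (3 of 10 for T cells) of another type were set apart as named in the text. Folds between single libraries used 1 CPM as pseudocount over genes with at least 1 CPM in some library.

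Counts summed per library were tested for 2 ta-activated against 2 ta-non-activated libraries with edgeR 4.0.16 (quasi-likelihood, TMM, filterByExpr, Benjamini-Hochberg adjustment, two-sided), and DESeq2 1.42.0 was an alternative. The script was tested on simulated data. No source used here says that the libraries of a group came from separate experiments beyond pooled mice, so p-values measure only the spread between these libraries. The week was not a term of the main test and was tried as a block. The 9 chemokine genes, the gene lists and the tests were chosen with earlier results of these data known. The motif letters, the list bins and the look at single most loaded cells were chosen after values were seen. From each list up to 4 genes were named, those with the highest CPM in any library, and *Nr4a1* and *Areg* came in as genes most like a chemokine. The genes most like a chemokine were the 5 with the highest Pearson r of log(1 + thinned UMIs), among genes in at least 1% of cells. One symbol carried by more than 1 row was left out of the myeloid markers. Promoters came from RefSeq (GRCm38.p6) and gene positions from GENCODE M21.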

Additional observations from a re-analysis of the deposited data

Results flagged for a closer look

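*Xcl1* was the chemokine gene whose single-library differences between ta-activated and ta-non-activated cells went in opposite directions by 2-fold or more in the 2 weeks. The log2 ratio, with 1 CPM added, was 2.23 in week 2 and -1.69 in week 3. The week 3 value rested on 1 cell with NK or ILC1 markers. It held 17 of the 21 *Xcl1* UMIs of the ta-non-activated library, which was at 0.426 CPM without it in place of 2.24 CPM. The difference between the weeks was not tested, since each week holds 1 library per state. Beside it, the 8 NK or ILC1 markers summed to 3.76 and 22 CPM in ta-non-activated and ta-activated cells of week 2, and to 7.24 and 1.96 CPM in those of week 3. Their part in the *Xcl1* values was not tested.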

How the results depend on the processing

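In the test of activation, DESeq2 called 1047 of 12575 genes (8.33%) and 2 of the 9 chemokine genes where edgeR called 0. Leaving out 1 library at a time gave 0 to 1646 genes and 0 to 1 chemokine gene, with 513 genes without the week 3 ta-non-activated library. A library left alone in its group was then assumed to vary like the other group. Over those fits the log2 difference ranged from -5.47 to 2.32 for *Cxcl3*, -4.29 to 7.27 for *Cxcl9*, -2.53 to 1.15 for *Ccl1*, -0.36 to 1.39 for *Ccl5* and -9.48 to 2.65 for *Xcl1*. *Cxcl2*, *Cxcl10* and *Ccl3* kept their direction under all 13 alternatives (-7.02 to -2.36, 0.73 to 3.61 and 1.27 to 4.73). *Cxcl9* was at -0.21 with a mitochondrial limit of 10%, -0.38 without T cell marker cells, -0.011 without cells with markers of any other type and -0.92 without the 5% of cells with most UMIs. *Ccl4* was at 2.24 without cells with markers of any other type. With the week as a replicate block *Xcl1* was at -1.51 and 0 genes were called by edgeR, with 1505 at an unadjusted p under 0.05. The correlation of the deviations of samples of the same week was -0.05 over 2 pairs, and no source used here says whether both libraries of a week share mice. The cause of these changes was not tested.

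The highest library was the same for 5 of 9 genes without T cell marker cells and for 5 without cells with markers of any other type. Genes highest in the naïve library numbered 4, and 2 and 1 under those settings. Genes at least 2-fold lower at week 3 than in naïve cells numbered 3 in place of 5 without T cell marker cells (23.6% in place of 26.6% of all genes). The log2 ratios were then 0.94 for *Cxcl2*, 0.17 for *Cxcl3*, 0.32 for *Ccl1* and -1.79 for *Ccl4*. Between ta-non-activated weeks 1 gene was lower without T cell marker cells (17.3% of all genes) in place of 2 (9.53%), with *Cxcl10* at 0.78 and *Ccl4* at -0.21. The number lower there was 4 with 0.1 CPM added and 1 with 10 CPM added. With 10 CPM added, 1 gene was lower after activation in week 2 and 2 in week 3, in place of 2 and 5. The share of all genes was not taken with 0.1 or 10 CPM added, so these counts have no background beside them. Without T cell marker cells *Ccl4* was at 0.19 in week 3. Thinned to 4000 UMIs, the top 5% of naïve cells held 57.8% of *Cxcl2* and 58.6% of *Ccl1* UMIs.

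Among pairs of genes at week 3, 1 in place of 3 had a ratio over 1 in ta-non-activated cells thinned to 1000 UMIs, 0 in place of 1 a ratio over 2 without cells with markers of other types, and 3 in place of 1 a ratio over 1 in ta-activated cells thinned to 4000 UMIs. With 1 marker more required, 1 gene had at least 50% of its UMIs in NK or ILC1 marker cells in each week 2 library, in place of 3 and 2. No pair could be read in week 3 ta-non-activated cells thinned to 4000 UMIs. Settings that leave out cells with markers of any other type, or the most loaded cell, and the sums without T cell marker cells were added after seeing the data. Depth limited *Cxcl9* (0 to 49 UMIs per library) and *Ccl3* in fresh cells (2 to 33 UMIs).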

Other observations

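The sum of the cytokine genes followed another order over the libraries than the sum of the 9 chemokine genes. The 12 genes of the cytokine list summed to 24777 CPM in ta-non-activated cells of week 2, 6202 and 6553 CPM in ta-activated cells of weeks 2 and 3, 1820 CPM in naïve cells and 427 CPM in ta-non-activated cells of week 3 (1942 and 1637 CPM in the last 2 without cells with T cell markers). *Il9*, a type 2 cytokine, was at 12576 CPM in ta-non-activated cells of week 2 and had no UMI in those of week 3. *Il13* was at 8861 and 19.6 CPM (86.0 CPM without T cell marker cells) in the same libraries, and at 3501 and 4318 CPM after culture. So the fresh library of week 2, lowest of the fresh libraries in *Cxcl2* and *Ccl1*, was the highest of all 5 in cytokine RNA. In edgeR's test none of the 12 was called, with 2 at an unadjusted p under 0.05.

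Of the genes that code for proteins which degrade cytokine mRNAs, *Zfp36l1*, *Zfp36l2* and *Zfp36* were at 1476, 1341 and 394 CPM in naïve cells. The same genes were at 42.1, 59.4 and 6.05 CPM in ta-non-activated cells of week 2, and at 237, 708 and 82.9 CPM in those of week 3, or 803, 1083 and 308 CPM without T cell marker cells. The 5 genes of that list summed to 184 to 316 CPM in the week 2 and cultured libraries. None of the 5 was called in edgeR's test, and none had an unadjusted p under 0.05.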
